A study of Mus musculus with 8 samples.

Results

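The mRNAs of 10 apolipoprotein genes, Apoa1, Apoa2, Apoa4, Apoa5, Apob, Apoc1, Apoc2, Apoc3, Apoc4 and Apoe, were followed in mouse liver with and without hepatocyte Opa1. The genes were chosen by name, as the apolipoprotein genes of the A, B, C and E classes that the liver expresses. All 10 were found among the 35976 genes of the table, and all 10 were among the 14036 genes that passed the filter on low counts. RNA was sequenced from whole liver of mice given a high fat diet, with 5 libraries of genotype CTRL and 3 of genotype OPA1_LKO, the livers in which Opa1 was knocked out in hepatocytes. Every sample of both groups received the diet, so no comparison with a normal diet was possible. The labels give no sex, age, strain or Cre driver, and they do not say whether each library is a separate animal. The p-values therefore measure only the spread between these libraries, which may be technical. In bulk liver RNA, fewer cells of a type and less RNA per cell cannot be told apart.

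Apolipoproteins are the protein coats of the particles that carry triglyceride and cholesterol in blood. ApoB is the structural protein of very low density lipoprotein and stays with its particle, apoA-I and apoA-II form most of the protein of high density lipoprotein, and the small C apolipoproteins and apoE move between particles and set how fast they are hydrolysed and cleared. Hepatocytes are the main source of most of them, the small intestine makes several as well, and macrophages also make apoE. OPA1 is a dynamin-like GTPase of the mitochondrial inner membrane, needed for its fusion and for the shape of cristae.

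Of the 10 genes, 8 lie in clusters that have been kept together in mammals. On chromosome 9, Apoa1, Apoc3, Apoa4 and Apoa5 lie within 43.3 kb (chr9:46228630-46271921, GRCm38.p6), and on chromosome 7, Apoc2, Apoc4, Apoc1 and Apoe lie within 29.7 kb (chr7:19671579-19701310). Apoa2 is at chr1:171221564-171226379 and Apob at chr12:7977629-8016839. RefSeq start windows of build GRCm38.p6, from 250 bases before to 50 bases after a transcript's start, were matched for 8 of the 10 genes (12 windows). The table used holds no window for Apoc1 or Apoc3. Windows of 3 genes are shown because the levels of their genes relative to other apolipoprotein genes separated the groups most often: Apoa2, and the neighbours Apoc2 and Apoc4. The Apoa2 window is the one at chr1:171224804-171225103 (plus strand) of the 2 in the table, that of Apoc2 is chr7:19677892-19678191 (minus strand) and that of Apoc4 is chr7:19681411-19681710 (minus strand). Each is written from 5′ to 3′ on the strand of its gene, and capitals mark 4 motifs on either strand: TATAAA (the TATA box), AGGTCA (the half-site of nuclear receptors), CACGTG (an E-box) and CCAAT (the CCAAT box).
Apoa2: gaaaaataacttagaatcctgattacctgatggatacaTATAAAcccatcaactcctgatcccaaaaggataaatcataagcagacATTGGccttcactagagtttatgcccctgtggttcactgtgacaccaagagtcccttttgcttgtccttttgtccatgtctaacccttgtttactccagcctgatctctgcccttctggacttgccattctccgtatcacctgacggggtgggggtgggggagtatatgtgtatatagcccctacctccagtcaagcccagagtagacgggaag
Apoc2: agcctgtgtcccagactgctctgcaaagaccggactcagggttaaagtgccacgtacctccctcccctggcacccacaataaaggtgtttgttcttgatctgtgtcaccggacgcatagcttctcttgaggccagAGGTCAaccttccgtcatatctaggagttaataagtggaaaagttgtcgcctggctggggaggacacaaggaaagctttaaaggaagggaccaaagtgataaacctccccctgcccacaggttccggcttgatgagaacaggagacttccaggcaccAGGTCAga
Apoc4: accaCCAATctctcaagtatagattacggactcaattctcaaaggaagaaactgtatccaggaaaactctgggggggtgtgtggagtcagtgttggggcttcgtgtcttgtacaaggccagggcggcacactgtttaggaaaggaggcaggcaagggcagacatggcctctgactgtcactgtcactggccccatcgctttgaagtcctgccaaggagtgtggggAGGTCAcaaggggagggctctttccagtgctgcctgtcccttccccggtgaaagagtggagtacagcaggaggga

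None of the 4 motifs is contained in another. The Apoa2 window holds TATAAA 212 bases and the reverse complement of CCAAT 164 bases upstream of the start. The Apoc2 window holds AGGTCA 115 bases upstream and again 42 bases downstream of the start, and the Apoc4 window holds AGGTCA 25 bases and CCAAT 246 bases upstream. Among all 32851 windows of 300 bases, TATAAA occurred in 13.6%, AGGTCA in 16.3%, CACGTG in 7.15% and CCAAT in 37.4%. Among the 12 windows of the apolipoprotein genes these motifs occurred in 5, 3, 2 and 3. The Apoa4 and Apoa1 windows held none of the 4. Apoa5 was the only gene with CACGTG, in both of its overlapping windows. A match describes these letters only.

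Library totals ran from 16076392 to 20471256 counts, and the 10 genes together took 4.01% to 7.15% of counts and 9.52% to 12.1% of summed TPM (a value per transcript length, scaled to a fixed total in each library, that allows levels to be compared between genes). Opa1 was checked first. In CPM, the counts relative to the scaled library total that are used here to compare libraries, it stood at 39.9, 51.9, 44.0, 57.6 and 46.9 in CTRL 1 to 5 and at 24.7, 34.4 and 34.0 in OPA1_LKO 1 to 3. The groups did not overlap. OPA1_LKO minus CTRL was -0.63 ± 0.17 on the log2 scale (fold change ± SE, as throughout), and edgeR's quasi-likelihood test with Benjamini-Hochberg adjustment gave a p of 0.0539, or 0.0272 without CTRL 1. Which exons were deleted is not given, and reads outside them would still be counted. The 15 hepatocyte markers were present in every library, at a summed 79814 to 138163 CPM.

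Apart from the group, 2 CTRL libraries stood apart in ways that touch these genes. CTRL 1 had Apoe at 134 CPM, whereas the other libraries had between 20759 and 33180 CPM. Of 14 macrophage markers, 12 were highest in CTRL 1, and their sum was 1240.4 CPM there and 251 to 499 CPM in the other libraries. In CTRL 1 the lysosomal macrophage protein gene Cd68 was at 76.7 CPM, against 5.01 to 19.4 CPM elsewhere. CTRL 3 held RNA of genes that mark enterocytes, the absorptive cells of the intestine. Alpi, the intestinal alkaline phosphatase, was at 185.8 CPM in CTRL 3 and at 0 to 2.33 CPM in the other 7 libraries, Sis (sucrase-isomaltase) at 49.9 against 0 to 0.823 CPM, and Cdx2, the intestinal homeobox factor, at 2.52 CPM against 0 in all others. Because the intestine makes several apolipoproteins, fold changes are also given without CTRL 3 for the genes in which it was the highest CTRL library. The part of these RNAs in the values of the apolipoprotein genes was not tested.

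**Figure D1:**
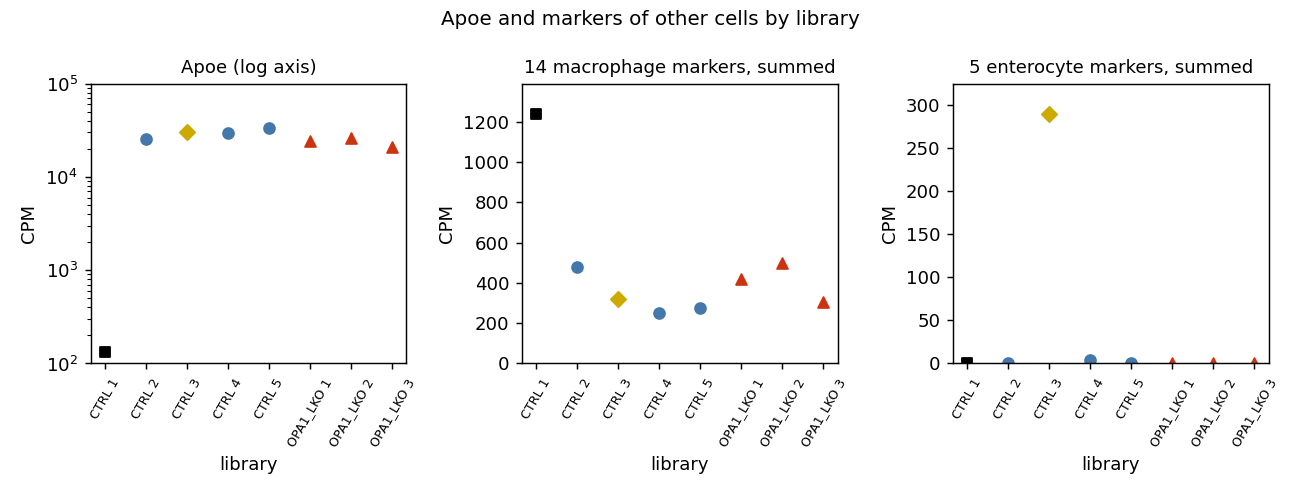
Apoe, the sum of 14 macrophage markers and the sum of 5 enterocyte markers (Vil1, Lct, Sis, Alpi and Cdx2, without Fabp2, which liver also expresses) in CPM for each library. The Apoe panel has a log axis and the other panels start at 0. CTRL 1 (square) is lowest for Apoe and highest for macrophage markers, and CTRL 3 (diamond) is at 290.1 CPM for enterocyte markers, where the other 7 libraries reach at most 4.25 CPM.

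Apolipoprotein mRNAs were among the most abundant of the liver. Apoa2 had the highest mean level over all libraries at 31173 TPM and ranked between 2nd and 9th of all genes in each library. Apoc1 followed at 27770 TPM, then Apoe at 21974, Apoa1 at 10966, Apoc3 at 8659, Apoc4 at 4595, Apoc2 at 1516, Apoa4 at 1338, Apoa5 at 784 and Apob at 155 TPM. The low position of Apob is a statement per length, since its very long transcript collected 26418 to 43860 counts a library, more than Apoa5 or Apoc2 in the same library. In CTRL, Apoa2 was above Apoc1 in range, with no CTRL library of Apoa2 below 31373 TPM and none of Apoc1 above 30275 TPM. In OPA1_LKO, Apoa2 averaged 24097 ± 3360 TPM (SD, n = 3), below Apoc1 at 28053 ± 2382 and Apoe at 24442 ± 4615 TPM, and these 3 ranges overlapped. Of the other neighbours in the CTRL order, Apoa1 and Apoc3, Apoc2 and Apoa4, and Apoa4 and Apoa5 overlapped in range, while Apoc3 and Apoc4, Apoc4 and Apoc2, and Apoa5 and Apob did not. Apoe overlapped its neighbours Apoc1 and Apoa1, the latter only through CTRL 1.

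**Figure D2:**
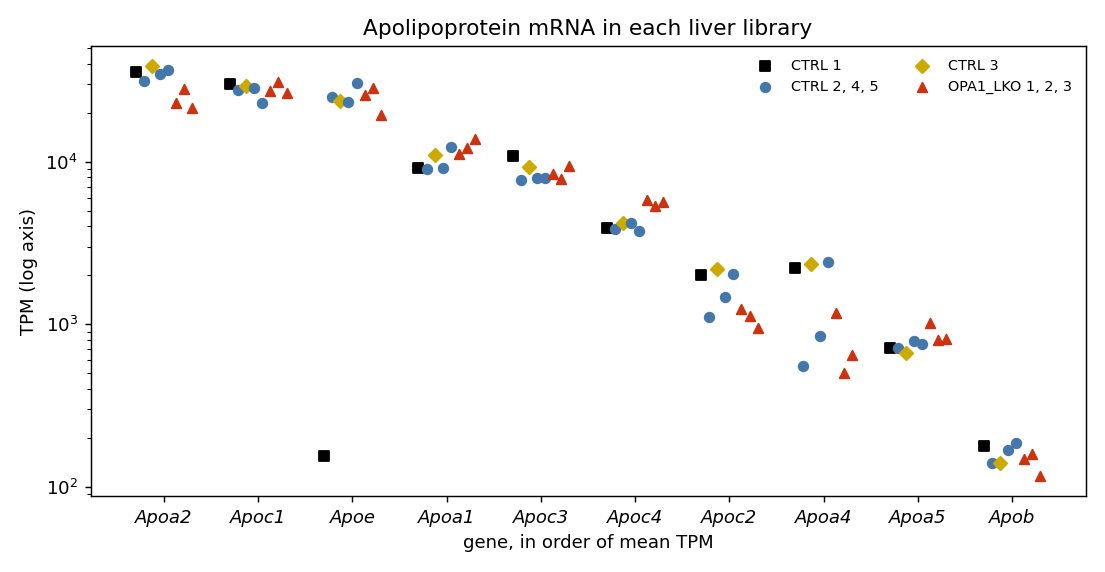
TPM of the 10 genes on a log axis, in order of their mean, with 1 point for each library. The OPA1_LKO points (triangles) lie below every CTRL point for Apoa2 and above every CTRL point for Apoc4 and Apoa5, and the Apoe point of CTRL 1 (square) lies at 156 TPM.

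None of the 10 genes passed an adjusted p of 0.05 in the fit of all 8 libraries. In that fit 2.69% of the tested genes were called lower and 3.34% were called higher in OPA1_LKO. By unadjusted p, Apoc2 (0.00612), Apoa2 (0.00626) and Apoa4 (0.0317) were under 0.05 in the same edgeR model across all genes. The share of all tested genes under that unadjusted cut was not computed, so these p-values do not set the apolipoprotein genes apart from other genes. Without CTRL 1, 5.59% of tested genes were called lower and 6.65% higher, and 1 of the 10, Apoa2, was called lower. DESeq2 on all 8 libraries called 3 of the 10, Apoa2, Apoc2 and Apoa4, each lower, where it called 6.10% of all genes lower and 6.03% higher. The fold changes of the 10 genes had a median of -0.18, and 6 of 10 were below 0, against a median of -0.03 and 53.1% below 0 over all tested genes. Without CTRL 1 the median was -0.26 and 7 of 10 were below 0. On the log2(TPM + 1) scale, where the median of all genes was 0.09, a shift of 0.126, 5 of 10 were below 0 and their median was -0.0026. In CPM, 2 of the 10 (Apoa2 and Apoc2) were lower in every OPA1_LKO library than in any CTRL library, as were 8.41% of tested genes, and 0 were higher in that way, against 8.0%. In TPM, 1 (Apoa2) was lower in that way, against 2.79%, and 2 (Apoc4 and Apoa5) were higher, against 9.52%.

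**Figure D3:**
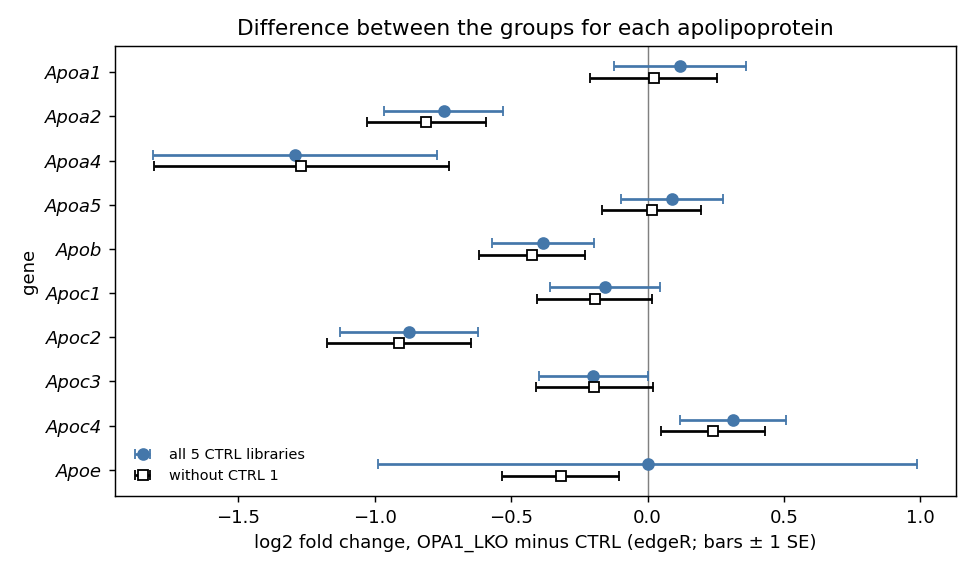
The log2 fold change (OPA1_LKO minus CTRL) of each gene with 1 SE to each side, from edgeR with all 5 CTRL libraries (circles) and without CTRL 1 (squares). Apoa4, Apoc2 and Apoa2 lie farthest below 0, Apoc4 farthest above it, and the wide bar of Apoe (0.99) becomes 0.21 without CTRL 1.

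Of the apolipoproteins of high density lipoprotein, Apoa2 separated the groups and Apoa1 did not. Apoa2, the second protein of these particles, stood at 10441, 10404, 16236, 14126 and 13046 CPM in CTRL 1 to 5 and at 7060.4, 8333 and 7569 CPM in OPA1_LKO 1 to 3. All 3 OPA1_LKO libraries lay below all 5 CTRL libraries. Its log2 fold change was -0.75 ± 0.22, or 0.596-fold, with an adjusted p of 0.0727 by edgeR. It was -0.81 ± 0.22 without CTRL 1 (adjusted p = 0.0397, edgeR) and -0.63 without CTRL 3 (0.121), the library with the highest Apoa2. Over the 18 alternatives the fold change ran from -0.82 to -0.56 and the edgeR, DESeq2 or limma adjusted p from 0.00128 to 0.533, with 3 of the 18 past the threshold. On TPM the groups were 35418 ± 2714 (SD, n = 5) and 24097 ± 3360 (n = 3) and did not overlap either. Its transcripts had similar proportions in both groups: NM_001305549.1 made up 53.6% ± 0.521 of Apoa2 TPM in CTRL and 53.5% ± 0.397 in OPA1_LKO, and NM_013474.2 made up 44.1% ± 0.57 and 43.9% ± 0.306.

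Apoa1, the main protein of high density lipoprotein and the activator of the enzyme LCAT, stood at 6052, 6779, 10567, 8715 and 9993 CPM in CTRL 1 to 5 and at 7834, 8344 and 11255 CPM in OPA1_LKO. The groups overlapped, and the log2 fold change was 0.12 ± 0.24 (adjusted p = 0.802, edgeR), with values of -0.03 without OPA1_LKO 3 and 0.23 without CTRL 3. The ratio of Apoa2 to Apoa1 in TPM does not depend on the scaling of a library. It was 3.93, 3.50, 3.51, 3.74 and 3.002 in CTRL 1 to 5 and 2.06, 2.30 and 1.54 in OPA1_LKO 1 to 3, so that the groups did not overlap. Neither CTRL 1 nor CTRL 3 was the lowest CTRL library for this ratio.

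Apoa4, whose product is made mainly by the intestine and, in mouse, also by a fatty liver, varied most among libraries apart from Apoe. It stood at 2667, 759.5, 4085, 1453 and 3576 CPM in CTRL 1 to 5 and at 1496, 625 and 951 CPM in OPA1_LKO. The groups overlapped, since CTRL 2 and CTRL 4 lay within the OPA1_LKO range while CTRL 1, 3 and 5 lay above it. Within CTRL the coefficient of variation of its TPM was 53.7%, and the highest library had 4.36 times the lowest. At -1.29 ± 0.52, the log2 fold change (adjusted p = 0.166, edgeR) was the lowest of the 10 genes. It was -1.27 ± 0.54 without CTRL 1 (0.144) and -1.03 without CTRL 3 (0.243), the library with enterocyte RNA and the highest Apoa4. Over the alternatives the adjusted p ran from 0.0470 with DESeq2 to 0.505, and the fold change from -1.67 to -0.82. CTRL 5, at 3576 CPM of Apoa4, had 0.974 CPM of the 5 enterocyte markers summed.

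Apoa5, a low-abundance activator of lipolysis made by hepatocytes, stood at 1046 to 1655 CPM in CTRL and 1215 to 1568 CPM in OPA1_LKO. Its log2 fold change was 0.09 ± 0.19 (adjusted p = 0.810, edgeR). On TPM, the values were 663 to 792 in CTRL and 801 to 1013 in OPA1_LKO and did not overlap, with a difference of 0.26 on the log2(TPM + 1) scale (limma adjusted p = 0.429). On that scale the median gene also lay higher, as given above.

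Apob, which encodes the structural protein of very low density lipoprotein, stood at 1962, 1736, 2222, 2660.0 and 2513 CPM in CTRL 1 to 5 and at 1719.8, 1814 and 1564 CPM in OPA1_LKO. The OPA1_LKO values lay at the low end, and only CTRL 2 fell inside their range. For Apob the log2 fold change was -0.38 ± 0.19 (adjusted p = 0.244, edgeR), -0.42 ± 0.20 without CTRL 1 (0.174), and between -0.46 and -0.17 over all 18 alternatives, none of them past the threshold.

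The C apolipoproteins did not move as 1 group. Apoc2, the cofactor that lipoprotein lipase needs, stood at 732, 487.5, 1147, 813 and 961 CPM in CTRL 1 to 5 and at 486.9, 449.98 and 419 CPM in OPA1_LKO 1 to 3. The OPA1_LKO libraries lay below all CTRL libraries, though OPA1_LKO 1 and CTRL 2 were nearly equal. Apoc2 had a log2 fold change of -0.87 ± 0.25, or 0.546-fold (adjusted p = 0.0719, edgeR), and -0.91 ± 0.26 without CTRL 1 (0.0500135, just above the threshold). Without CTRL 2, the lowest CTRL library, it was -1.02 (0.0330), and without CTRL 3, the highest, it was -0.71 (0.106). Over the 18 alternatives 2 passed, with adjusted p between 0.00854 and 0.294. On TPM the groups overlapped, at 1106 to 2180.2 in CTRL and 948 to 1251 in OPA1_LKO.

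Apoc4, the gene just upstream of Apoc2 and a minor protein of very low density lipoprotein, stood at 1134, 1272, 1771, 1729 and 1323 CPM in CTRL 1 to 5 and at 1780.3, 1608 and 2007 CPM in OPA1_LKO. The groups overlapped in CPM through CTRL 3 and CTRL 4. On the log2 scale Apoc4 differed by 0.31 ± 0.19 (adjusted p = 0.360, edgeR), 0.24 ± 0.19 without CTRL 1 (0.427) and 0.42 without CTRL 3 (0.224). On TPM the values were 3889, 3843, 4210.4, 4221 and 3735 in CTRL and 5816, 5377 and 5667 in OPA1_LKO, which did not overlap. Its coefficients of variation, 5.59% in CTRL and 3.98% in OPA1_LKO, were the smallest of the 10 genes in each group. The difference was 0.50 on the log2(TPM + 1) scale with a limma adjusted p of 0.134, the smallest of the 10 genes in that fit, and 0.0805 was the smallest over the 18 alternatives.

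The ratio of Apoc4 to Apoc2 in TPM was 1.95, 3.47, 1.93, 2.85 and 1.83 in CTRL 1 to 5 and 4.65, 4.80 and 5.98 in OPA1_LKO 1 to 3. Every OPA1_LKO library was above every CTRL library. Reads of the pair are not fully separable, since the table also holds a readthrough gene, Apoc4-apoc2, at 14.7 to 24.9 TPM in CTRL and 6.24 to 18.5 TPM in OPA1_LKO, far below either gene. The estimated counts of Apoc2 and Apoc4 therefore rest in part on how reads shared with that gene were assigned. The 2 transcripts of Apoc2 had shares that spread widely, with NM_001309795.1 at 55.4% to 77.0% over all libraries and the groups overlapping.

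Apoc1, an inhibitor of lipid transfer and of particle uptake, averaged 7672 ± 1392 CPM over the CTRL libraries and 6887.5 ± 433 CPM over OPA1_LKO. Its log2 fold change of -0.16 ± 0.20 (adjusted p = 0.679, edgeR) became -0.0505 without CTRL 3 and 0.03 on the log2(TPM + 1) scale. Apoc3, an inhibitor of lipoprotein lipase and of hepatic uptake, was at 3225 ± 517 and 2809 ± 522 CPM, a log2 fold change of -0.20 ± 0.20 (0.582), which became -0.0925 without CTRL 3, -0.03 on the log2(TPM + 1) scale and 0.05 on that scale without CTRL 1. The ratio of Apoc4 to Apoc1, also neighbours, was 0.128 to 0.163 in CTRL and 0.175 to 0.215 in OPA1_LKO and did not overlap. Within Apoc3, the minor transcript NM_001289833.1 took 3.35% to 3.71% of TPM in CTRL and 4.13% to 5.48% in OPA1_LKO, and the main one, NM_023114.4, took 92.6% to 93.4% and 90.5% to 91.6%.

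Across 19 transcript shares in 6 genes, 3 had groups that did not overlap at the smallest two-sided p that an exact permutation test over the 56 divisions allows, 0.0357. These were both Apoc3 transcripts just named and NM_001305550.1 of Apoa2, at 1.53% ± 0.121 in CTRL and 1.73% ± 0.0332 in OPA1_LKO. The Benjamini-Hochberg value over the 19 was 0.226 for each in the exact permutation test, so none passed. Shares within a gene are not independent, so the Apoc3 transcripts are not separate results. How often transcript shares of other genes did not overlap was not computed.

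Apoe, the ligand through which particles bind their uptake receptors, stood at 134, 25200.4, 30184, 29583 and 33180 CPM in CTRL 1 to 5 and at 24128, 26123 and 20759 CPM in OPA1_LKO 1 to 3. CTRL 1 held 2520.0 counts of Apoe where the other libraries held 350724 to 580835. The lowest of the other libraries had 155 times the CPM of CTRL 1. With 2 CPM added to every value, which leaves out differences among very low genes, 3 tested genes were at least 2-fold below every other library in CTRL 1 (Apoe, Hamp2 and Fmo2) and 140 were at least 2-fold above. Hamp2 followed Apoe in that order, at 5.89 CPM in CTRL 1 and at least 17.0 CPM elsewhere. Whether CTRL 1 has the genotype and origin of the other CTRL libraries cannot be told from the labels, which name it CTRL like the rest, so values that use it as a control carry that doubt. With this library the log2 fold change of Apoe was 0.00 ± 0.99 (adjusted p = 0.9998, edgeR), and without it -0.32 ± 0.21 (0.346). It was 1.39 on the log2(TPM + 1) scale and 1.30 with a replicate block, both with CTRL 1, and -0.0755 on the log2(TPM + 1) scale without CTRL 1. The other 4 CTRL libraries and the 3 OPA1_LKO libraries overlapped, since CTRL 2 lay below OPA1_LKO 2. The other 9 genes were not low as a set in CTRL 1: without Apoe they took 9.50% of summed TPM there and 7.91% to 9.75% in the other libraries. Tomm40, the gene next to Apoe, was at 38.5 to 43.4 CPM over all CTRL libraries.

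The transcripts of Apoe also differed in CTRL 1. NM_009696.4 made up 97.97%, 77.4%, 98.0% and 97.6% of Apoe TPM in CTRL 2 to 5 and 96.4%, 98.1% and 81.4% in OPA1_LKO 1 to 3, but 42.7% in CTRL 1, where NM_001305844.1 made up 50.4%. NM_001305844.1 was also high in CTRL 3 and OPA1_LKO 3, at 21.6% and 17.3%, and between 0.846% and 2.36% in the remaining 5. In TPM it was at 78.5 in CTRL 1, 5136 in CTRL 3 and 3345 in OPA1_LKO 3, so its high share in CTRL 1 went with a low level. These high shares fell in both groups.

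Because Apoe of CTRL 1 weighs on any total, the make-up of the pool was taken over the other 9 genes. Apoa2 made up 37.7% to 41.3% of their summed TPM in CTRL and 27.0% to 32.2% in OPA1_LKO. Apoc4 made up 4.09% to 4.83% and 6.22% to 7.36%, Apoa1 9.58% to 13.8% and 14.02% to 17.5%, and Apoa5 0.680% to 0.906% and 0.926% to 1.28%. These 4 genes had shares that did not overlap between the groups, Apoa2 lower and the other 3 higher in OPA1_LKO, and the other 5 overlapped. The gaps of Apoa1 and Apoa5 were narrow. With all 10 genes in the total, Apoa5 overlapped, at 0.547% to 0.752% in CTRL and 0.698% to 0.967% in OPA1_LKO, and Apoa2, Apoc4 and Apoa1 did not. How often such shares did not overlap for other sets of genes was not computed. Shares of 1 total are not independent, since a lower share of the most abundant gene raises the rest.

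**Figure D4:**
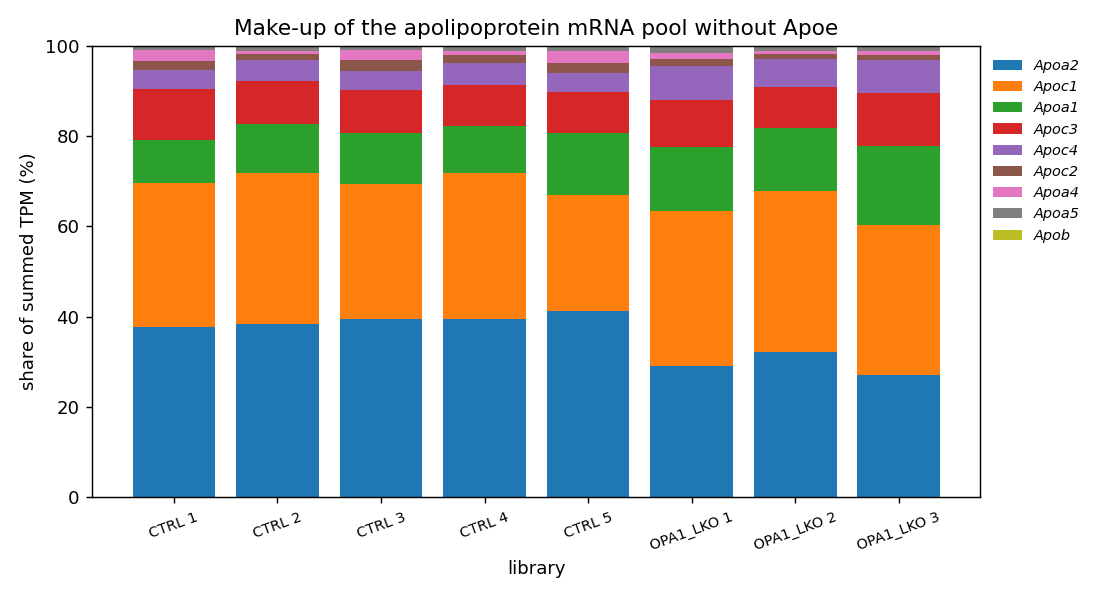
Share of each of 9 apolipoprotein genes in their summed TPM, without Apoe, for each library. Apoa2 at the base of each bar is between 27.0% and 32.2% in the 3 OPA1_LKO libraries and between 37.7% and 41.3% in the 5 CTRL libraries.

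Ratios between single genes avoid a common total. Of all 45 pairs of the 10 genes, 12 (26.7%) had TPM ratios that did not overlap between the groups, and 14 (31.1%) without CTRL 1. Over all pairs of the 13833 tested genes with TPM above 0 in every library, these shares were 17.0% and 26.7%. Apoa2 was the lower partner in OPA1_LKO in 6 of its 9 pairs, with Apoa1, Apoa5, Apob, Apoc1, Apoc4 and Apoe. Apoc4 was the higher partner in 5 of its 9, with Apoa2, Apob, Apoc1, Apoc2 and Apoc3. Apoc2 was the lower partner in 3, with Apoa1, Apoa5 and Apoc4, and Apoa4 had none. These pairs share genes and libraries, and the counts are given as a description.

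**Figure D5:**
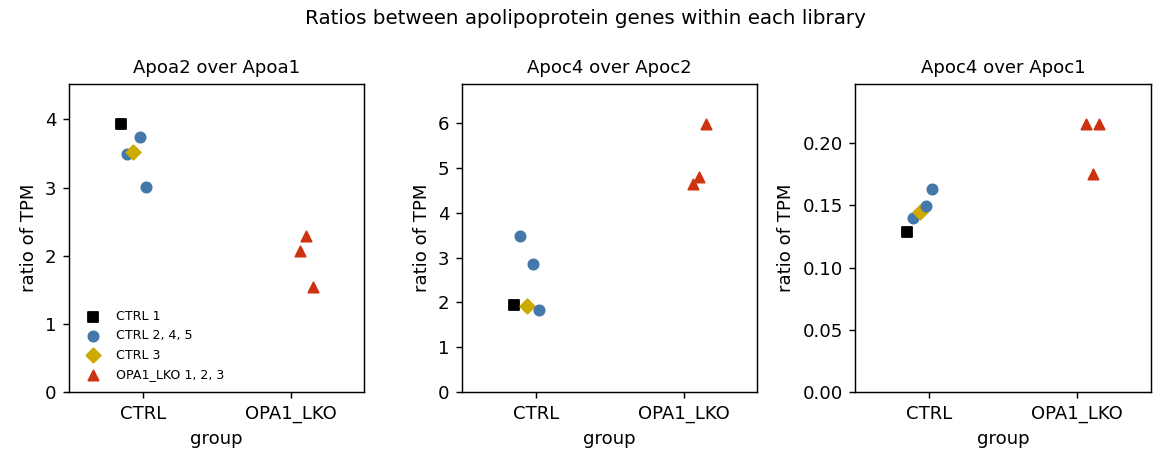
Ratio of TPM of 3 pairs of apolipoprotein genes in each library, with every vertical axis starting at 0. The OPA1_LKO libraries (triangles) lie below all CTRL libraries for Apoa2 over Apoa1 and above all of them for Apoc4 over Apoc2 and Apoc4 over Apoc1.

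The genes of a cluster did not share a sign, and none of the tested genes beside them passed with all libraries. On chromosome 9 the log2 fold changes ran from -1.29 for Apoa4 to 0.12 for Apoa1, and on chromosome 7 from -0.87 for Apoc2 to 0.31 for Apoc4. Sik3 and Zpr1, which border the chromosome 9 cluster, differed by 0.16 ± 0.15 and 0.31 ± 0.23 (adjusted p = 0.540 and 0.446, edgeR). Clptm1 and Tomm40, which border the chromosome 7 cluster, differed by 0.14 ± 0.13 and 0.27 ± 0.12 (0.544 and 0.198). Tomm40l, whose RefSeq gene model overlaps that of Apoa2, averaged 97.2 ± 20.6 CPM over CTRL and 61.9 ± 17.8 CPM over OPA1_LKO, a log2 difference of -0.65 ± 0.23 (adjusted p = 0.119, or 0.0498 without CTRL 1, edgeR). Whether reads were counted by strand is not given in the sources used here, so reads of this overlapping pair may not be fully told apart. On the other side of Apoa2, Fcer1g, a gene of myeloid cells, was at 8.85 to 58.4 CPM in CTRL and 15.1 to 20.5 CPM in OPA1_LKO, with an adjusted p of 0.694 by edgeR.

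Correlations of log2 CPM over the 8 libraries, which share depth and group and carry no test, were high between Apoa2 and Apoc2 (r = 0.91) and between Apoa4 and Apoc2 (r = 0.89). The genes most like Apoa2 were Aamdc, Fam151a and Myo5b (r between 0.968 and 0.971, n = 8), and without CTRL 1 Fam151a was the closest (0.994, n = 7). For Apoc2 they were D5Ertd579e, Gal3st1 and Smdt1 (0.948 to 0.964), and for Apoa4 Clcn7, Slc17a4 and 4732419C18Rik (0.946 to 0.978). For Apoe they were C5ar2, Ifi202b and Mfsd3 (0.937 to 0.984), each lowest in CTRL 1. Without CTRL 1 the list for Apoe changed to Ttl, Abhd16a and Lonrf1.

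The other genes of lipoprotein metabolism were read as 6 lists with 120 tested entries, of which 2 were called higher and 7 lower in the fit of all libraries, and 3 and 14 without CTRL 1. Over all tested genes the shares called were 3.34% higher and 2.69% lower, and 6.65% and 5.59% without CTRL 1. Among 18 tested genes of other apolipoproteins and particle proteins, 3 fell and 0 rose. Saa1 and Saa2, the acute phase serum amyloid proteins that ride on high density lipoprotein, were the largest: Saa1 fell by 2.54 ± 0.44 on the log2 scale (adjusted p = 0.0122, edgeR) and Saa2 fell by 2.87 ± 0.46 (0.00892). Apol7a fell by 1.24 ± 0.21 (0.0123), with 89.5 to 163.1 CPM in CTRL and 47.8 to 67.4 CPM in OPA1_LKO. The list's median was -0.29, with 16 of 18 below 0. Its most abundant genes, Apoh, Clu and Pon1, had log2 fold changes of -0.29, 0.14 and 0.03, none past the test. Mbl2, a secreted lectin, was at -0.66 (0.0690), and fell by 0.75 without CTRL 1 (0.0218).

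Among 22 genes of the assembly and secretion of apoB particles 1 fell and 0 rose, with a median of -0.19. It was Smlr1, a small membrane protein needed for the secretion of these particles, which fell by 0.74 ± 0.14 (adjusted p = 0.0165, edgeR), from 49.5 to 59.7 CPM in CTRL to 32.1 ± 5.16 CPM. The chaperones P4hb and Pdia3 and the lipid droplet protein gene Cideb, the most abundant of the list, were at -0.22, -0.04 and -0.28, none past the test. Of 8 tested genes of the editing of Apob RNA and the deaminases related to it, Apobec3 rose by 1.32 ± 0.25 (0.0160), from 4.80 to 10.2 CPM in CTRL to 15.8 ± 2.53 CPM, and 0 fell. Apobec3 encodes an antiviral deaminase and is not an editor of Apob. The editing cofactors A1cf and Rbm47 were at -0.47 ± 0.17 and -0.48 ± 0.17 (0.121 and 0.119), and Rbm47 fell by 0.57 without CTRL 1 (0.0294). Hnrnpab was at 0.17.

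None of 18 tested receptors and uptake genes passed with all libraries. The median of the list was -0.13. Atp5b, Sdc4 and Cd36, the most abundant, were at -0.23, -0.03 and -0.65. Of 17 tested genes of lipases, angiopoietin-like proteins and lipid transfer 1 rose and 0 fell. Angptl4, an inhibitor of lipoprotein lipase, rose by 0.98 ± 0.24 (adjusted p = 0.0423, edgeR), from 77.4 to 163.6 CPM in CTRL to 248 ± 16.2 CPM. Lpl, lipoprotein lipase itself, was at 119 ± 26.7 CPM in OPA1_LKO. Its CTRL libraries ran from 25.3 CPM to 179 CPM in CTRL 1, the library with high macrophage markers, and its log2 fold change of 0.93 ± 0.59 (0.373) became 1.84 ± 0.21 without that library (0.000947). Creb3l3, which encodes a transcription factor of hepatocytes, was at -0.23.

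Of 37 tested transcription regulators of apolipoprotein genes 3 fell and 0 rose, with a median of -0.23 and 25 of 37 below 0. Foxa2, a forkhead factor of hepatocyte identity, fell by 0.99 ± 0.21 (adjusted p = 0.0233, edgeR), Cebpa by 0.82 ± 0.18 (0.0286) and the retinoic acid receptor gene Rara by 0.60 ± 0.15 (0.0418). Cebpa went from 286 to 442 CPM in CTRL to 193.6 ± 23.5 CPM. Without CTRL 1, 7 fell: these 3, Nr2f6 by 0.54, Ppara by 0.78, Thrb by 0.84 and Srebf1 by 0.89. Ppara, the fatty acid receptor of hepatocytes, had an adjusted p of 0.0825 with all libraries and 0.0143 without CTRL 1. The bile acid receptor gene Nr1h4 was at -0.14.

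Markers of other cells moved beside these groups. Of 7 cholangiocyte markers 3 rose, and the sum of the 7 was 17.5 to 72.6 CPM in CTRL and 141 to 204.5 CPM in OPA1_LKO, mostly Spp1. Krt19, Epcam, Cldn7 and Cftr were each highest in CTRL 3, the library with enterocyte RNA. Krt19 was at 22.3 CPM there and at 2.13 to 5.67 CPM in OPA1_LKO. In the other CTRL libraries each of these genes was below every OPA1_LKO library. None of 14 macrophage, 10 stellate and 7 endothelial markers passed the test with all libraries, where CTRL 1 was highest for 12 of the macrophage markers. Without CTRL 1 the macrophage sum still overlapped, at 251 to 479 CPM in CTRL and 304 to 499 CPM in OPA1_LKO. Gpnmb (0.755 to 5.61 against 15.7 to 26.8 CPM) and Trem2 (1.71 to 4.81 against 5.74 to 9.19 CPM) then did not overlap, and the other macrophage markers did. Their test without CTRL 1 is not reported here. The stellate sum was 224 to 308 CPM in CTRL and 341 to 698 CPM in OPA1_LKO and did not overlap. Its highest value was in OPA1_LKO 2, and Dcn was the largest part of it in every library. Of the single stellate markers only Pdgfrb did not overlap, at 5.83 to 12.3 CPM in CTRL and 12.6 to 24.5 CPM in OPA1_LKO. How often sums of other gene lists did not overlap was not computed. Of 6 enterocyte markers 2 were tested and 1, Fabp2, fell by 1.28 ± 0.28 (adjusted p = 0.0301, edgeR), from 165 to 418 CPM in CTRL to 104 to 150.04 CPM in OPA1_LKO. Of 15 hepatocyte markers 3 rose and 0 fell. Over all tested genes, 3.34% were called higher and 2.69% lower. The part of these cells in the values of the apolipoprotein genes was not tested.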

How the data were processed

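Stranded, poly(A)-selected libraries of liver RNA were made, per the labels' protocols. STAR, RSEM, StringTie and MultiQC and the genome build mm10 are named, without versions or order, per the submitters' processing notes. The annotation release is not given in the sources used here. Per gene and per transcript, the authors deposited RSEM expected counts and TPM for each library. Expected counts were rounded and tested with edgeR 4.0.16 in R 4.3.3 (quasi-likelihood test on the group, TMM scaling, filterByExpr with a minimum count of 10 and minimum total of 15). P-values were adjusted by Benjamini-Hochberg over all tested genes, with a threshold of 0.05. CPM values are TMM-scaled. TPM comparisons used limma 3.58.1 on log2(TPM + 1), a scale that understates changes of low genes. DESeq2 1.42.0 was an alternative. The count test was checked on simulated counts with the same spread for every gene and, except for changed genes, the same gene proportions in every library. Libraries that stand apart were not part of that check. No row lacked a gene name. Transcript shares were tested with an exact two-sided permutation test.

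The member genes, pathway lists and marker lists were chosen with earlier results of these data known, and carry no independent support. The text names all 10 genes, list genes that passed with all libraries or without CTRL 1, the 3 most abundant genes of each list (some of these list genes are not reported here), the genes most correlated with Apoa2, Apoc2, Apoa4 and Apoe, and genomic neighbours. Shared replicate numbers come from titles only. Deviations of same-numbered libraries correlated at 0.072, 0.0537 and 0.175, so the numbers were not taken as pairs. No labels name a batch. Gene positions and start windows come from RefSeq (GRCm38.p6, the assembly of mm10). Alternatives were other scalings and filters, the TPM scale, a replicate block, and each library left out. Leaving out CTRL 1 and 3 together, and CTRL 1 on the TPM scale, were added after the data were seen. The fit without CTRL 1 was planned, but that library was singled out for its low Apoe in these same data.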

Additional observations from a re-analysis of the deposited data

Results flagged for a closer look

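Among 39 sets of 5 CTRL values (CPM and TPM of each gene and 19 transcript shares), 4 had a library far from the rest by Dixon's ratio of the gap to the range, above the critical value of 0.71; chance alone flags about 1 set in 20. All 4 were Apoe in CTRL 1. Apoe was low there in CPM (ratio 0.759) and in TPM (0.765), and the shares of the minor transcripts NM_001305819.1 (0.947) and NM_001305843.1 (0.932) were high, at 4.88% and 2.04% of Apoe TPM against at most 0.824% and 0.361% in the other CTRL libraries. Those 2 shares rest on 124 and 56.5 estimated counts. The low Apoe of CTRL 1 was known before these sets were examined, and the 4 flagged sets describe the same gene and library. The rate of 1 set in 20 therefore does not weigh them.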

How the results depend on the processing

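No gene of the 10 was called higher under any of 18 alternatives. DESeq2 called 3 lower, where it called 6.10% of all genes lower. CTRL 1 and 3 left out together called 1, Apoa2 (log2 fold change -0.70, adjusted p = 0.0484, edgeR), where 1428 genes were called lower. Leaving out 1 library called 0 to 1. These were Apoa2 without CTRL 1, where 5.59% of tested genes were called lower, and Apoc2 without CTRL 2, where 196 genes were. With all libraries 14036 genes were tested. The direction of Apoa2, Apoa4, Apoa5, Apob, Apoc2 and Apoc4 held under all 18. Apoc1 changed sign on TPM, at 0.0266 with a pseudocount of 1 or 0.1 and with no filter, and 0.0616 without CTRL 1. Apoc3 became 0.0484 and Apoe -0.0755 in that last fit, and Apoe became -0.30 without CTRL 1 and 3. With CTRL 1, Apoe stood at 1.39 in each limma fit on TPM and 1.30 with a replicate block. With 1 library left out Apoe ran from -0.32 (without CTRL 1) to 0.15, and below 0 also without OPA1_LKO 1 or 2, and Apoa1 from -0.0301 (without OPA1_LKO 3) to 0.235.

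Genes called numbered 846 (377 lower, 469 higher), 1692 with DESeq2 (851 and 841), 817 with upper-quartile scaling (270 and 547), 611 with limma on log2(TPM + 1) (107 and 504), 560 with a pseudocount of 0.1, 418 with no filter, 1875 with limma without CTRL 1, 2919 without CTRL 1 and 3, 367 with a replicate block, and 198 to 1701 with 1 library left out: 1701 without CTRL 1, 448 without CTRL 2, 502 without CTRL 4, 422 without CTRL 5, 198 without OPA1_LKO 1 and 231 without OPA1_LKO 3. The replicate block called 0 of the 10. The numbers are shared only by name.

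Transcript share differences (percentage points) changed sign 13 times, in 11 of 19 transcripts, and with 1 library left out their ranges were NM_001305549.1 -0.309 to 0.0799, NM_013474.2 -0.343 to 0.00543, NR_131173.1 -0.0302 to 0.147, NM_080434.3 -0.0194 to 0.613, XM_006510538.3 -0.613 to 0.0194, NM_001277944.1 -9.49 to 1.31, NM_001309795.1 -1.31 to 9.49, NM_001289756.1 -0.0291 to 0.151, NM_001305819.1 -0.930 to 0.140, NM_001305844.1 -13.4 to 0.622 and NM_009696.4 -0.760 to 14.6. The causes were not tested. With 5 and 3 libraries an exact test cannot go below 0.0357.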

Other observations

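C5ar2, the gene most like Apoe over the 8 libraries, was at 0.106 CPM in CTRL 1 and at most 2.38 CPM elsewhere, and lies 3.46 Mb from Apoe on chromosome 7. Of 86 tested genes within 5 Mb of Apoe, 15.1% were below and 17.4% above all other libraries in CTRL 1, against 12.05% and 13.5% of all tested genes. These shares were 20.2% and 11.2% of 89 genes near Apoa1, 4.76% and 31.0% of 84 near Apoa2, and 24.2% and 15.2% of 33 near Apob. The windows were chosen after the values were seen, and no test was made.

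CTRL 3 was the highest library for 5 of the 10 apolipoprotein genes in CPM (Apoa2, Apoa4, Apoc1, Apoc2 and Apoc3), and CTRL 1 was the lowest for 4 (Apoa1, Apoa5, Apoc4 and Apoe). Fabp2, the intestinal fatty acid binding protein gene, was at 418 CPM in CTRL 3 but also at 104 to 372 CPM in the other libraries, unlike the other 5 enterocyte markers. Genes of the mitochondrial genome took 26.4% of counts in CTRL 3 and 11.96% to 21.7% in the other libraries.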
